A study of Sus scrofa with 6 samples.

Results

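The cells described here were the ileal cell barcodes that carried the transcripts LYZ (lysozyme), CST3 (cystatin C) and AIF1 (a calcium-binding protein of myeloid cells). They also held few or no transcripts of selected lymphocyte and enterocyte genes. A barcode was a member when it held at least 3000 unique molecular identifiers (UMIs, each a counted transcript molecule) and 800 genes, at least 10 UMIs of LYZ, CST3 and AIF1 together, at most 1 UMI of CD3E and CD3G, at most 1 of MS4A1 and PAX5, and fewer than 5 of EPCAM, KRT8 and VIL1. In all, 1018 of 51569 barcodes past the same depth limits were members. They were chosen by their measured counts of these genes, so the levels of the rule genes are a description. By library, from the youngest to the oldest age (days 0, 1, 3, 7, 14 and 21), they numbered 203 of 6907, 618 of 7661, 137 of 7848, 12 of 8355, 45 of 11928 and 3 of 8870 barcodes. The working name of this group, monocytes and macrophages, held for part of it. When the members were clustered, 405 of them (39.8%) fell into clusters named from at least 3 raised markers of the monocyte or macrophage list, 234 (23.0%) into dendritic cell-like clusters, 62 (6.09%) into fibroblast-, endothelial- or T and NK cell-like clusters and 317 (31.1%) into clusters left unnamed. The members are therefore called LYZ/CST3/AIF1 cells below.

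The study followed the ileum of newborn pigs by single-cell RNA sequencing at 6 ages. All libraries came from male Large White piglets that took maternal milk without antibiotics, born to 3 sows, with 5 piglets sampled at each age. The ileal mucosa was scraped off and dissociated with EDTA and TrypLE, a mild protease mix, and each age gave 1 droplet library (days 0, 1, 3, 7, 14 and 21 after birth). The study counts 5 piglets at each age for the cell map and 1 chip loading per group, and no file ties a barcode to a piglet. Age, library, litter and dissociation therefore cannot be told apart, no test between ages was possible, and every interval below covers counting error only. Each library listed 6794880 barcodes, unfiltered, with 19327 to 5545955 UMIs in its LYZ/CST3/AIF1 cells. The makeup of all barcodes past the depth limits, members included, also differed between libraries. Epithelial barcodes, the tissue's defining cells, made up 34.1% of them on day 0 and 0.0113% on day 21, and B cell barcodes 8.67% and 90.0%.

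Monocytes are blood-borne phagocytes that enter tissues, where they can become macrophages, the resident cells that clear debris, bind microbes and, in the gut, renew continuously from the blood. Dendritic cells are related cells that carry antigen to T cells on MHC class II molecules. All of these express AIF1 and CST3 to some degree, so the 3 genes that chose the cells do not separate them. Birth exposes the ileum to milk and to its first microbes, and monocyte products such as the S100 alarmins, interleukin 1 and chemokines are known as early signals of the innate response.

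LYZ/CST3/AIF1 cells made up 2.94% of the deep barcodes at birth (exact Clopper-Pearson 95% interval 2.55 to 3.37%) and 8.07% a day later (7.47 to 8.70%). At the later ages, days 3, 7, 14 and 21, they made up 1.75% (1.47 to 2.06%), 0.144% (0.0742 to 0.251%), 0.377% (0.275 to 0.504%) and 0.0338% (0.00698 to 0.0988%). The share was highest on day 1 and its intervals on days 7, 14 and 21 lay below those of days 0, 1 and 3. The large B cell fraction of the later libraries entered this denominator. Among barcodes that were not B cell barcodes, the members were 3.22, 9.60, 4.07, 0.664, 3.13 and 0.337% in the same order of ages, so day 14 then stood close to day 0. Near the rule's threshold, 9, 51, 15, 0, 7 and 0 members on days 0, 1, 3, 7, 14 and 21 held 10 to 14 UMIs of the 3 genes, and 22, 83, 38, 1, 7 and 0 barcodes that met every other limit held 5 to 9.

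**Figure D1:**
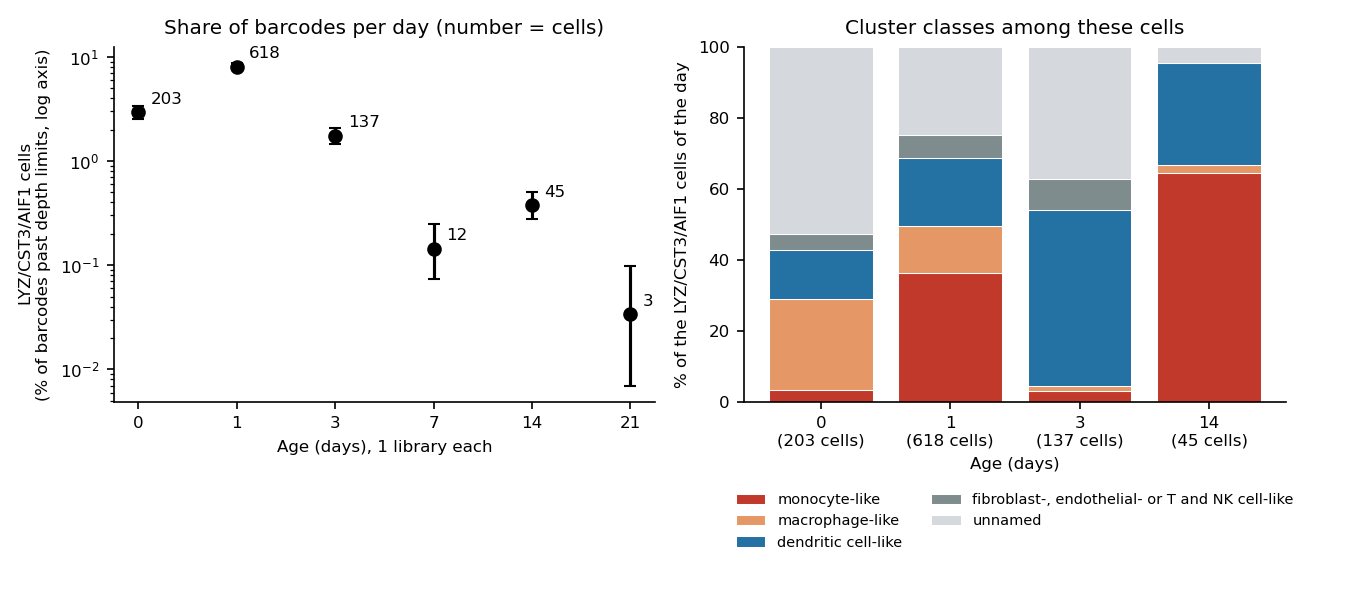
Left, share of barcodes past the depth limits that were LYZ/CST3/AIF1 cells on each day (logarithmic axis in percent, bars are exact 95% intervals, the number of cells is written at each point). Right, percent of each day's cells in 5 classes of clusters on days 0, 1, 3 and 14; monocyte-like cells were 3.45, 36.2, 2.92 and 64.4% of them.

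The makeup of the cells differed between libraries. Clustering gave 16 clusters, of which 11 could be named from marker lists. Monocyte-like cells (clusters 0 and 8) were 7 of 203 cells at birth (3.45%, interval 1.40 to 6.98%) and 224 of 618 on day 1 (36.2%, 32.4 to 40.2%). Cluster 7, 49 further cells of day 1, raised 10 of 13 monocyte and 5 of 8 neutrophil markers and was left unnamed because LTF and LCN2 were among its 10 leading genes, and with it the day 1 share was 273 of 618 (44.2%, 40.2 to 48.2%). Monocyte-like cells were 4 of 137 on day 3 (2.92%) and 29 of 45 on day 14 (64.4%, 48.8 to 78.1%). A second list was met in both monocyte-like clusters, and the list with the larger share of its markers raised gave the name. Cluster 0 raised 9 of 13 monocyte markers and 3 of 8 neutrophil markers (CSF3R, TREM1 and IL1R2). Cluster 8, which held 26 of the 29 cells of day 14, raised 4 of 13 monocyte markers (FCN1, LYZ, CSF3R and PLAC8) and 3 of 20 macrophage markers (CD163, CD68 and CSF1R), so the day 14 shares of both classes rest on how it was named. Without the rule gene LYZ, clusters 0, 7 and 8 raised 8, 9 and 3 of 12 monocyte markers, so that cluster 8 then raised as many monocyte as macrophage markers. Macrophage-like cells (clusters 2 and 11) were 52 at birth (25.6%, 19.8 to 32.2%) and 82 on day 1 (13.3%, 10.7 to 16.2%), then 2 on day 3 and 1 on day 14. The dendritic cell-like clusters held 13.8, 19.1, 49.6 and 28.9% of the cells of days 0, 1, 3 and 14, and the unnamed clusters 52.7, 24.8, 37.2 and 4.44%. Unnamed cluster 1, with 76 cells on day 0, raised FCER1A and FLT3 of the conventional dendritic cell 2 list, fewer than the 3 markers needed. Unnamed cluster 6, with 22 cells on day 0, raised FLT3 among other markers. The dendritic cell-like shares thus rest on the naming too. On day 7 the 12 cells split into 3 monocyte-like, 5 dendritic cell-like and 4 unnamed ones, and the 3 cells of day 21 were 1 macrophage-like and 2 dendritic cell-like. The names rest on the raised markers, and the genes with the highest ratios served only to withhold the name of cluster 7. The 10 leading genes of clusters 0 and 8 held no monocyte marker and those of cluster 11 only APOE of the macrophage list. Cluster sizes are a description, because the clusters were made from these same genes and a cluster held mostly by 1 library may be that library.

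The 15 genes with the highest ratio of members to all other deep barcodes are a description, since the rule fixed that of CST3 and LYZ, and 5 of the 15 are LOC genes. The ratio of members to other barcodes, averaged over the libraries of days 0, 1 and 3, was highest for TIFAB at 205-fold. It was 142-fold for DNASE1L3, a secreted nuclease of dendritic cells and macrophages, 97.7-fold for CD163, the scavenger receptor for haemoglobin, and 76.0-fold for CSF1R, the receptor for the macrophage growth factor. CST3 itself reached 67.9-fold, FCN1 (ficolin 1, a monocyte lectin) 66.6-fold and LYZ 60.7-fold. The 3 rule genes were weighted differently by day. The median cell held 53, 9, 27, 3, 2 and 10 CST3 UMIs on days 0, 1, 3, 7, 14 and 21, while AIF1 lay between 9 and 16 and LYZ between 0 and 8. In 162 of the 1018 cells CST3 alone gave over 90% of the rule's UMIs, and 992 cells held AIF1.

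Levels below are UMIs of a gene per 10000 UMIs summed over a day's LYZ/CST3/AIF1 cells, and lists of 6 levels are in the order of days 0, 1, 3, 7, 14 and 21. A gene entered a comparison of 2 days when its mean level over both was at least 0.5 per 10000, and was counted as higher or lower at 2-fold or more. A gene near 0 on 1 of the days entered only through the other day, so the direction of its call was set by the filter. From day 0 to day 1, 248 of 2383 genes (10.4%) passed 2-fold, 196 higher (8.22%) and 52 lower (2.18%) on day 1. From day 0 to day 14, 584 of 2576 (22.7%) passed, 439 higher (17%) and 145 lower (5.63%), and from day 1 to day 14, 452 of 2521 (17.9%), 320 higher (12.7%) and 132 lower (5.24%). The whole counting interval of the ratio lay past 2-fold in 7.3, 11.5 and 8.13% of the genes. The 3 comparisons share libraries pairwise, so their lists are not independent. The median gene lay at a log2 ratio of -0.02, 0.20 and 0.19 in these comparisons. The later surplus of higher genes depended on scaling: 75.2% of the day 14 against day 0 calls were higher, but 58.6% with TMM factors and 60.3% with median of ratios factors, and against day 1 these shares were 70.8, 57.0 and 55.2%. With no minimum level the split turned, with 28.1% of the calls against day 0 and 25.9% of those against day 1 higher on day 14. There, a gene with 0 UMIs on day 14 and any on the other day counted as lower. The members of days 0, 1 and 14 held 1734466, 5545955 and 295019 UMIs, so this split cannot tell direction from depth.

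Monocyte markers were far higher on day 1 than on day 0. Of 8 listed monocyte genes that entered, the rule gene LYZ left out, 7 were higher than on day 0 and 0 lower, against 8.22% of all genes higher. Their median log2 ratio was 4.30. Among the 7, S100A8, S100A9 and S100A12 stood at 0.0634, 0.196 and 0.0865 on day 0. They entered only through day 1, so the filter set the direction of their calls. FCN1 (chromosome 1, 274125666 to 274132917 in Sscrofa11.1), a lectin that binds bacterial sugars, had levels of 0.98, 8.68, 0.0492, 1.55, 14.3 and 0. It was high on days 1 and 14 and close to 0 on days 3 and 21. The day 1 level was 8.86-fold (7.6 to 10.4) higher than that of day 0 and the day 14 level 14.6-fold (12.2 to 17.6) higher. After each cell was thinned to 3000 UMIs, 46.4% of day 1 cells held FCN1 (48.7% before thinning) and 7.88% of day 0 cells (11.3%), beside 1.06% and 0% of B cell barcodes. Median depths before thinning were 8454.5 UMIs in the members and 5051 in the B cell barcodes on day 1, and 8154 and 4382 on day 0. F13A1 (coagulation factor XIII A chain), another gene of monocytes and some macrophages, followed the same days, with 0.11, 1.78, 0.258, 0.119, 2.07 and 0.517. Neutrophil markers, of which 3 entered, were higher on day 1 in 2 and lower in 0, and their part in the monocyte and S100 results was not tested.

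The S100 alarmins, calcium-binding proteins that monocytes and neutrophils release as danger signals, had the same high days. S100A9 (chromosome 4, 96236114 to 96238989) stood at 0.196, 43.6, 0.191, 2.62, 22.7 and 0 and was 222-fold (159 to 321) higher on day 1 than on day 0. S100A8, its partner in calprotectin, stood at 0.0634, 15.9, 0.0369, 1.79, 4.95 and 0. S100A12 stood at 0.0865, 27.3, 0.215, 0.596, 11.2 and 0. All 3 peaked on day 1, held an intermediate level on day 14 and had 0 UMIs on day 21. Free RNA, read from barcodes with 100 UMIs or fewer, held 5.24 S100A9 UMIs per 10000 on day 1 and 0.281 on day 0, and B cell barcodes 0.598 and 0, all below the day 1 level of the members. CD14, the lipopolysaccharide co-receptor, was 8.31-fold higher on day 1 and VCAN, a matrix proteoglycan made by monocytes, 46.1-fold. LYZ had levels of 7.15, 12.1, 0.91, 26.2, 32.2 and 0, but it belongs to the rule and is given as a description.

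SAA3, ARG1 and ACOD1 were among the 10 higher genes whose counting bound lay farthest from 1 on day 1. SAA3 (chromosome 2, 41021349 to 41025950), a serum amyloid A gene, had levels of 0.0519, 64.6, 1.6, 28, 12 and 15. Its day 1 level was 1244-fold (655 to 2722) that of day 0, resting on 9 UMIs on day 0, and 236 of the 618 day 1 cells carried it. ARG1, the arginase that depletes arginine, had levels of 0, 13.6, 0.141, 0.119, 3.73 and 0 and was at 0 UMIs on day 0. With day 0 set at the floor of 3 UMIs, its day 1 level was 788-fold higher, and the lower counting bound of the ratio was 641-fold. ACOD1, which makes itaconate, stood at 0.00577, 2.66, 0.043, 0.357, 3.32 and 0. These genes were below 2 UMIs per 10000 on days 0 and 3 and higher on days 1 and 14. SAA3 has close copies (SAA2 stood at 0, 8.54, 0.191, 0, 6.51 and 0), as have the swine leukocyte antigen genes, the HSP70 genes and ferritin, and reads shared between copies make their split uncertain.

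Of 14 genes of the inflammatory cytokine list that entered, 11 were higher on day 1 and 0 lower, against 8.22% and 2.18% of all genes. Their median log2 ratio was 1.33. The list also holds regulators and enzymes, and TNFAIP3, NFKBIA, NFKB1, PTGS2 and SOD2 were among the 14. IL1B, the secreted interleukin 1 beta, stood at 0.773, 15.7, 0.418, 2.14, 2.92 and 6.21 and was 20.4-fold (17.2 to 24.3) higher on day 1 than on day 0. IL1A stood at 0.692, 4.15, 0.289, 1.19, 1.39 and 8.28. TNF was closer, 0.623 on day 0 and 1.84 on day 1, and SOD2, the mitochondrial superoxide dismutase switched on by these cytokines, stood at 1.04, 19.1, 1.75, 1.79, 4.75 and 2.07. Day 1 was the high day for IL1B, TNF and SOD2 among the days with over 100 cells. IL6, a cytokine of the same group, stayed at or below 0.13 on every day. The ferritin heavy chain FTH1, the iron store, had levels of 74.2, 349, 47.8, 133, 178 and 152 and was 4.7-fold (4.62 to 4.78) higher on day 1, while the light chain FTL stood at 20.2 on day 0 and 15.1 on day 1. Free RNA held 40.6 and 68.6 FTH1 UMIs per 10000 on these days.

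Chemokines, the attractants of other leukocytes, were higher on day 1 in 8 of 11 genes and lower in 1, against 8.22% and 2.18% of all genes (median log2 ratio 2.72). At a mean level of at least 2, 5 genes of the cytokine list and 5 chemokines were higher. Fewer genes entered there and the shares above do not apply, so these counts have no background here. CXCL10, which attracts T cells and is induced by interferon, stood at 0.6, 22.4, 0.528, 0, 62.2 and 0 and was 37.3-fold (30.7 to 45.7) higher on day 1. CCL5, a T cell attractant, stood at 0.611, 9.5, 0.694, 0.357, 6.1 and 1.03, with free RNA at 9.42 on day 0 and 4.1 on day 1. CXCL8, which attracts neutrophils, stood at 0.473, 4.88, 0.0799, 1.43, 0.271 and 0, and CXCL2, with the same role, at 1.72, 7.79, 0.799, 4.76, 0.237 and 0.517. The neutrophil attractants were thus high on day 1 and low on day 14, whereas CXCL10 was higher on day 14 than on day 1. The exception was CXCL14, a chemokine of epithelium and stroma, at 22.5, 4.01, 0.621, 0.715, 9.22 and 97.3, which was 5.62-fold (5.34 to 5.93) lower on day 1 and which 1 cell dominated on day 14. In the macrophage-like cells of cluster 11, 21 of which were on day 0 and 1 on day 1, CXCL14 reached 173, and in those of cluster 2 it was 8.28 on day 0 and 13.5 on day 1.

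**Figure D2:**
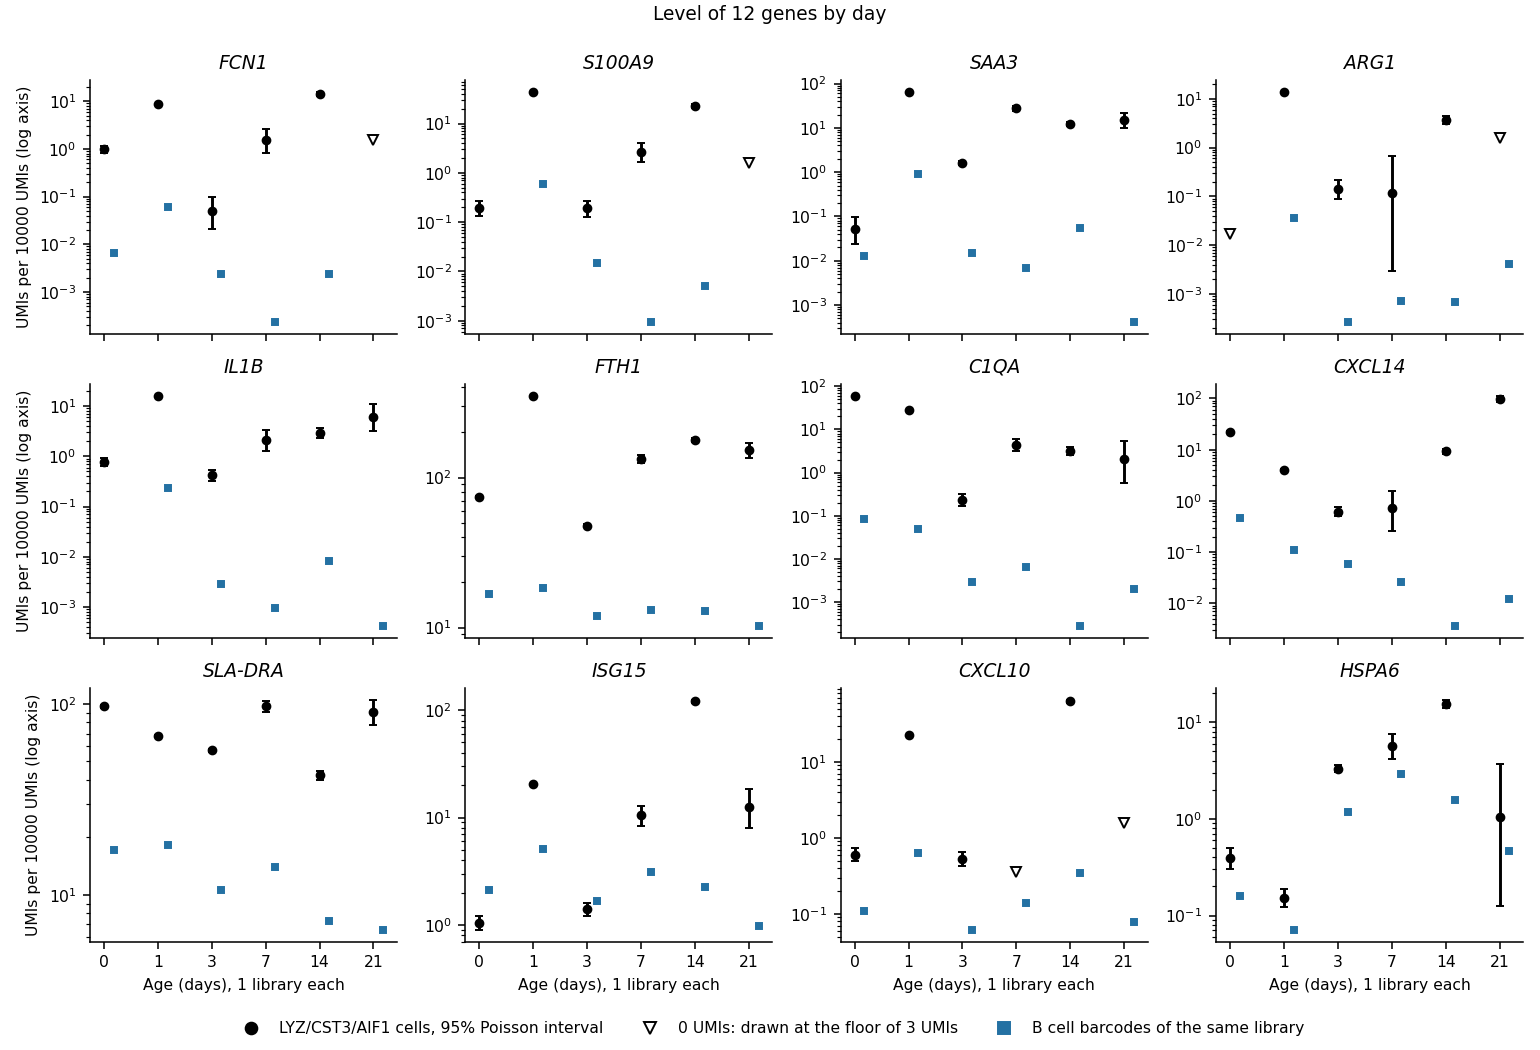
Levels of 12 genes in LYZ/CST3/AIF1 cells on each day (logarithmic axis, UMIs per 10000; black circles with exact Poisson 95% intervals, open triangles mark 0 UMIs at the floor of 3 UMIs, blue squares are B cell barcodes of the same library). FCN1, S100A9 and ARG1 were high on days 1 and 14, C1QA was highest on day 0, and HSPA6, ISG15 and CXCL10 were highest on day 14.

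Several macrophage genes were lower on day 1. Of 11 listed macrophage genes that entered, 5 were lower on day 1 than on day 0 and 2 higher, against 2.18% and 8.22% of all genes, with a median log2 ratio of -0.87. With collagen and endothelial genes limited too, 2 were lower. The 2 higher genes were CD163 and F13A1. C1QA (chromosome 6, 80586259 to 80589213), a chain of the complement starter C1q that resident macrophages make, stood at 58.7, 27.6, 0.234, 4.41, 3.22 and 2.07. C1QB and C1QC, the partner chains, were lower by 2.21-fold and 2.36-fold on day 1 and by 9.03-fold and 11-fold on day 14. The complement list as a whole had 3 of 7 genes lower on day 1, which were these 3 chains. All 3 were highest on day 0 and lowest on day 3, when only 2 cells were macrophage-like.

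The lipid carrier APOE stood at 18, 7.75, 3.55, 13.8, 5.49 and 43.5 and the selenium carrier SELENOP at 7.97, 2.6, 0.129, 0.119, 0.237 and 1.03. For SELENOP the free RNA held 4.76 on day 0 and 10.8 on day 1. CD163 went against the list, at 0.484, 1.49, 0.0246, 0.119, 2.41 and 0, and CSF1R was within 2-fold between days 0, 1 and 14, at 4.04, 3.36 and 3.42. Thinned to 3000 UMIs, 36.5% of day 0 cells, 20.4% of day 1 cells and 6.67% of day 14 cells held C1QA (39.9, 23.6 and 6.67% before thinning), beside 2.34, 1.31 and 0.0191% of B cell barcodes. The macrophage-like class was named from genes of this list, and the part of its share in these levels was not tested beyond the values within that class given below.

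Antigen presentation genes are known from all of these cell types. Of 12 genes of the MHC class II list that entered, 2 were lower and 0 higher on day 1 than on day 0, against 2.18% and 8.22% of all genes (median log2 ratio -0.52). On day 14, 4 were lower and 2 higher than on day 0, against 5.63% and 17% (median -0.69), the lower ones numbering 2 among cells of at least 5000 UMIs. Besides SLA genes the 12 held CD74, CTSS, IFI30, CD86 and CD40, which are not class II chains. SLA-DRA, the pig DR alpha chain, stood at 97, 68.2, 57.1, 97.3, 42.3 and 90.5, and CD74, the invariant chain, at 145, 90, 111, 206, 95.3 and 142. B cell barcodes held 17.2, 18.3, 10.6, 14, 7.26 and 6.52 SLA-DRA UMIs per 10000. FLT3, the growth factor receptor of dendritic cells, stood at 0.974, 0.438, 1.04, 2.14, 0.407 and 1.03. XCR1, the chemokine receptor of conventional dendritic cells 1, stood at 0.202, 0.2, 1.06, 0, 0.102 and 0 and was highest on day 3, the day on which 30 of the 137 cells (21.9%) were conventional dendritic cell 1-like. CCR7, which guides mature dendritic cells to lymph nodes, stood at 0.231, 1.61, 0.559, 0, 2.03 and 1.55, with B cell barcodes at 3.83 on day 1. The mature dendritic cell-like cluster held 52 cells on day 1, 8 on day 14 and 0 on day 0.

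The cells of day 14 stood apart by interferon-stimulated genes, which arm cells against viruses. Of 27 that entered the comparison with day 1, 24 were higher on day 14 and 0 lower, against 12.7% of all genes higher, with a median log2 ratio of 2.23. Against day 0 the count was 24 of 25 (17% of all genes, median 3.78). At the entry level of 0.5, 12 of 17 were at least 2-fold above day 0 on day 1 (8.22% of all genes, median 1.76). At a mean level of at least 2 these counts were 15, 14 and 2. Fewer genes entered there and the shares above do not apply, so these counts have no background here. The day 1 count, 2 at that level, is read as no result. OASL, RSAD2 and IFIT2 were below the entry level on day 1 (0.0487, 0.231 and 0.422) and entered through day 14 (0.983, 3.19 and 5.59). ISG20, IFIT1, IFIT2, IFIT3, OAS1, RSAD2, IFIH1 and USP18 entered for day 14 against 0 but not for day 1 against 0. Their entry thus rested on day 14, with IFIT1 at 0.0634 on day 0. ISG15 (chromosome 6, 63363201 to 63364211), a ubiquitin-like tag, stood at 1.04, 20.3, 1.39, 10.5, 120.4 and 12.4. Its day 14 level was 5.92-fold (5.7 to 6.15) that of day 1 and 116-fold (99.9 to 136) that of day 0, and 41 of the 45 cells carried it. IFIT1, which binds viral RNA, stood at 0.0634, 0.745, 0.0369, 0, 8.88 and 0.517, and MX1, a dynamin-like antiviral GTPase, at 0.98, 3.38, 0.817, 2.74, 17.6 and 12.4 with 43 of 45 cells positive on day 14. RSAD2 (viperin) was 13.8-fold (10.5 to 18.2) higher on day 14 than on day 1, and the regulator IRF7 was 6.89-fold higher. IFI6, a mitochondrial survival protein of the list, stood at 11.9, 11, 1.84, 23.3, 72.5 and 39.3, with 44 of 45 cells positive on day 14.

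In the B cell barcodes and free RNA of day 14 the interferon genes were not above their day 1 level. Summed over the 32 listed genes in the files, the level in LYZ/CST3/AIF1 cells was 22.6, 59.3, 12.6, 54.0, 313 and 88.5, while B cell barcodes held 11.2, 24.8, 11.5, 18.2, 12.5 and 10.2 and free RNA 11.2, 27.5, 14.2, 21.7, 22.8 and 9.69. Between days 0 and 1 the sums in B cell barcodes and free RNA were higher too, and their part in the day 1 values was not tested. CXCL10 on day 14 was spread over 27 of 45 cells, 60% of them after thinning (60% before) against 2.24% of B cell barcodes, at median depths of 6313 and 5635 UMIs. CXCL11, of the same receptor, had 0 UMIs on day 0 and stood at 0.188 on day 1 and 2.1 on day 14. The MHC class I list holds SLA chains, which present viral peptides, and genes of peptide loading and the proteasome. Its genes were higher on day 14 than on day 0 in 8 of 13 and lower in 0 (17% of all genes higher, median 1.12), and higher than on day 1 in 2 of 13 (12.7% of all genes, median 0.53). TAP1, the peptide transporter, stood at 0.455, 1.33 and 1.36 on days 0, 1 and 14.

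Heat shock chaperones, which refold damaged proteins, were also high on day 14. Of 13 that entered the comparison with day 1, 10 were higher on day 14 and 0 lower, against 12.7% of all genes higher (median log2 ratio 1.65), the same numbers as against day 0 (17% of all genes higher, median 1.96), while 0 of 12 passed 2-fold between days 0 and 1. HSPA6 (chromosome 4, 88970592 to 88973109), an inducible HSP70, stood at 0.392, 0.153, 3.31, 5.72, 15.6 and 1.03 and was 102-fold (80.4 to 129.5) higher on day 14 than on day 1. DNAJB1, its co-chaperone, stood at 1.78, 1.19, 5.47, 13.9, 26.5 and 4.14, and the nucleotide exchange factor BAG3 at 0.553, 0.55, 2.53, 2.03, 10.3 and 1.55. HSP90AA1 stood at 15.6, 15.7, 23.6, 34.5, 74.8 and 21.2. These genes were already above the day 0 level on days 3 and 7. B cell barcodes held 0.157, 0.0703, 1.18, 2.91, 1.59 and 0.47 of HSPA6 and 2.66, 1.58, 3.53, 7.8, 5.02 and 1.12 of DNAJB1. Summed over the list, the LYZ/CST3/AIF1 cells held 58.4, 60.2, 94.5, 109, 239 and 67.8, B cell barcodes 72.2, 82.9, 89.0, 87.1, 89.8 and 67.6, and free RNA 61.8, 55.9, 74.8, 65.5, 81.8 and 61.2. The list's sum in B cell barcodes was thus close on days 1 and 14, although HSPA6 and DNAJB1 were higher there on day 14 too. Chaperones and the early gene JUN (12.4, 10.3, 15.5, 26.8, 35.6 and 1.55) are also known to respond to tissue dissociation, whose part in the result was not tested.

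Some day 14 values came from very few of the 45 cells. A single cell gave 90.3% of the CXCL13 UMIs, 88.2% of those of CXCL14, 96.8% of those of IL22 and 53.5% of those of IL1B. The values behind the interferon and chaperone results were spread more evenly, with 8.02% of ISG15 and 6.75% of HSPA6 UMIs in the top cell. IL22, a lymphoid cytokine, was 38.9-fold higher on day 14 than on day 1 by that 1 cell. Among the genes lower on day 14 than on day 1, C3H2orf40 and MGP, a matrix calcification inhibitor, stood at 0.0807, 5.97, 14.5, 0, 0 and 0 and 0.138, 3.03, 13, 0, 0 and 0. On day 1 only 31 of 618 cells held C3H2orf40, and without the fibroblast-, endothelial- and T and NK cell-like clusters neither gene reached the minimum level. FABP6, an ileal enterocyte gene, stood at 1.2 in the day 1 cells, with 71.6% of its UMIs in 1 cell, and at 13.7 in the free RNA.

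Several genes were lower on day 14 than on both day 0 and day 1, as was the share of macrophage-like cells. DNASE1L3 stood at 9.43, 2.72, 1.71, 0, 0.237 and 1.03 and was 39.7-fold (19.2 to 99) lower than on day 0. LOC100624077 stood at 8.54, 2.52, 0.0922, 0, 0.0339 and 6.21. GPR34, a lysophosphatidylserine receptor, and ACP5, the tartrate-resistant acid phosphatase, were 18.3-fold (5 to 152) and 12.3-fold lower. Against day 1, RETN (resistin) was 17.3-fold (12 to 26.1) lower, CXCL2 32.8-fold (15.9 to 81.7) and IL1B 5.4-fold. Of 14 genes of the cytokine list, regulators and enzymes included, 6 were lower and 2 higher on day 14 than on day 1, against 5.24% and 12.7% of all genes (median log2 ratio -0.27, all genes 0.19). Of 11 chemokines 4 were lower and 4 higher. The lysosomal protease gene CTSD ran up, at 2.17, 1.01, 0.424, 1.79, 9.69 and 5.17. The inflammasome protease CASP1 was 5.76-fold higher on day 14 than on day 1, while IL18, one of its substrates, was 5.22-fold lower.

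The counts of the remaining lists for days 0 and 1 stand beside 8.22% of all genes higher and 2.18% lower, and lists with 1 or 2 genes called are read as no result. Between these days, 0 of 13 nuclear oxidative phosphorylation genes and 0 of 8 cell cycle genes passed 2-fold. In 20 immediate early genes 1 was higher and 1 lower, and in 19 lysosomal genes 1 and 2. Of 16 glycolysis and hypoxia genes 3 were higher, among them LDHA, lactate dehydrogenase A (1.3 and 4.99), and of 17 adhesion genes 6 were higher and 1 lower, led by VCAN and TIMP1, a metalloprotease inhibitor (14.5, 80.6, 11, 5.6, 56.1 and 2.59). Pattern recognition receptors had 2 of 8 higher (CD14 and TREM1), scavenger receptors 1 of 7 (CD163), iron genes 2 of 6 (FTH1 and CD163), lipid genes 1 higher and 1 lower of 8 and myeloid transcription factors 1 of 13 (TFEC). On day 14 against day 0, S100A8, S100A9 and S100A12 entered only through day 14, as they were near 0 on day 0. In this comparison 6 of 10 S100 and granule genes (LYZ left out), 6 of 9 pattern recognition genes and 9 of 16 adhesion genes were higher. In each of these lists 0 were lower, against 17% of all genes higher. Against day 1, 1 of 12, 2 of 10 and 1 of 17 were higher and 4, 0 and 2 lower, beside 12.7% and 5.24% of all genes. The chemokine receptor list had 4 of 4 genes higher (3 of 4 against day 1), namely CCR7, CX3CR1 and the complement receptors C5AR1 and C3AR1. For day 1 against 0 only CCR7 entered, so the other ones entered through day 14.

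**Figure D3:**
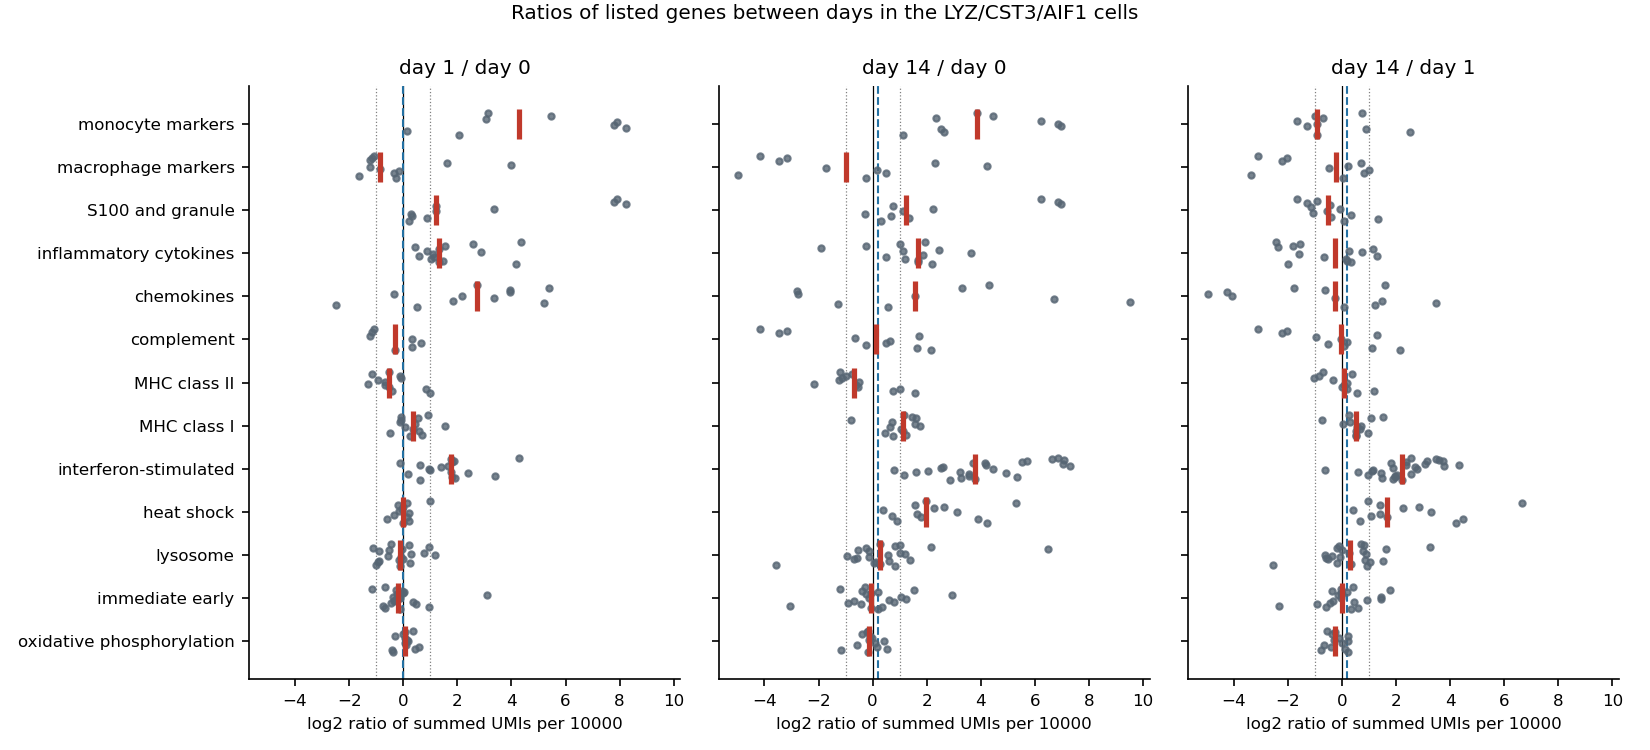
Log2 ratios of the genes of 13 lists in LYZ/CST3/AIF1 cells for day 1 against 0, day 14 against 0 and day 14 against 1 (1 point per gene that entered, LYZ left out; red tick, list median; blue dashed line, median of all genes; dotted lines, 2-fold in each direction). Monocyte genes lay to the right on day 1, and heat shock genes lay around 0 on day 1 and to the right on day 14. Interferon-stimulated genes lay to the right in all 3, but their day 1 count is read as no result.

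Markers of other cell types were low in the members, but not at 0. The rule itself capped EPCAM, KRT8, VIL1, MS4A1, PAX5, CD3E and CD3G, so the sums here leave these 7 genes out. The epithelial markers summed to 0.859, 2.22, 1.01, 0.596, 0.136 and 0 in the order of days, against 37.5 and 56.0 in free RNA on days 0 and 1. Fibroblast markers summed to 1.19, 1.68, 4.19, 0, 0.0339 and 0 and endothelial markers to 3.66, 2.95, 1.17, 2.03, 1.25 and 1.03. B cell markers summed to 1.20 to 2.59, beside 13.3 to 20.9 in B cell barcodes. T and NK cell markers summed to 1.27, 10.2, 1.25, 0.834, 7.02 and 3.104, almost all CCL5 on days 1 and 14. Neutrophil markers summed to 7.74, 11.6, 1.12, 9.17, 17.96 and 3.104, highest on day 14. Of the 3 that entered, 2 were higher on day 1 than on day 0 (median log2 ratio 3.36). On day 14, 3 of 4 were higher than on day 0 (median 2.08), with 0 lower in either comparison. MMP8 and LTF were at 0 on day 0 and MMP8 and MMP9 at 0 on day 14. FCGR3A, an Fc receptor on the neutrophil list, stood at 24.2 in the day 14 cells of cluster 8. It was also the only marker of that list raised in macrophage-like cluster 2, so the neutrophil sum does not count neutrophils alone. The monocyte list without LYZ summed to 6.87, 111, 8.60, 17.99, 84.0 and 16.6, above each of these sums except that of the neutrophil list on day 0, which shares CSF3R with it, and their part in the day differences was not tested. No member's barcode was a member in another library, and 14 were also deep in another library.

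Differences between days 0 and 1 could also be read within classes that both days held, which takes away part of the change in makeup. In the macrophage-like cells (52 on day 0, held by clusters 2 and 11 with 31 and 21 cells, and 82 on day 1, of which 81 in cluster 2), 268 of 2402 genes (11.2%) passed 2-fold, 142 higher (5.91%) and 126 lower (5.25%) on day 1, and 3.46% had the whole interval past it. CXCL10 stood at 0.576 on day 0 and 38.5 on day 1, 66.7-fold (44.8 to 104) higher, and CCL5 at 1.75 and 28.7. ISG15 stood at 0.816 and 15.8, and 9 of 16 interferon-stimulated genes were higher with 0 lower. Of 11 genes of the cytokine list 8 were higher and 0 lower, with IL1B at 0.768 and 5.77. The 4 mature dendritic cell genes that entered (CCR7, FSCN1, MARCKSL1 and CD83) were all higher. FTH1 stood at 116 and 531.

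C1QA in these macrophage-like cells stood at 205 on day 0 and 132 on day 1, within 2-fold, and FCN1 and S100A9 stayed at or below 0.956. CLU (clusterin), a chaperone of extracellular proteins, was 4.71-fold (3.39 to 6.61) lower, CXCL14 5.62-fold and CTSD 3.14-fold. APOE was lower too, 68.5 and 29.9. These 4 genes were not lower within cluster 2 alone, where APOE was higher on day 1, at 8.79 and 27.6, CLU stood at 0 and 0.468, CXCL14 at 8.28 and 13.5 and CTSD at 1.99 and 2.02. In all, 13 of the 268 genes turned there, 5 of them by 2-fold or more. The counting interval of the ratio was clear of 1 in 5 of the 13, but not for CTSD (0.725 to 1.445). In cluster 2, CXCL10 stood at 1.02 and 38.9 and C1QA at 259.7 and 132. 

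In the conventional dendritic cell 1-like cells (cluster 3, 14 cells on day 0 and 36 on day 1), 291 of 2163 genes (13.5%) passed 2-fold, 184 higher (8.51%) and 107 lower (4.95%), but 28 (1.29%) with the whole counting interval past it. Interferon-stimulated genes were higher in 16 of 19 and lower in 0. ISG15 stood at 2.8 and 32.6 and was 11.6-fold (8.41 to 16.5) higher, and FABP5, a fatty acid carrier, at 0.59 and 3.48. Of 19 immediate early genes 5 were lower and 1 higher, and TNFSF9 (the 4-1BB ligand), HSPA6 and FTL were lower by 24.1-fold, 16.5-fold (4.76 to 87.7) and 4.04-fold. CXCL16, a membrane-bound chemokine, was 3.01-fold lower.

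Cluster 1, the largest of the unnamed clusters with 163 cells, held 76 cells of day 0, 55 of day 1, 27 of day 3, 4 of day 7 and 1 of day 14. Its leading genes were CD1.1, of the CD1 family that presents lipids, and MS4A2 and FCER1A, chains of the receptor for immunoglobulin E, and it met no marker list. Here 139 of 2213 genes (6.28%) passed 2-fold between days 0 and 1, 98 higher (4.43%) and 41 lower (1.85%), and 1.99% had the whole interval past it. S100A9 stood at 0.0771 and 1.64, S100A6 at 2.17 and 13 and CXCL10 at 0.293 and 2.38. Of 8 S100 and granule genes (LYZ left out) 4 were higher and 0 lower, of 10 interferon-stimulated genes 4 were higher and 0 lower, and of 19 immediate early genes 5 were lower and 1 higher, FOS by 2.59-fold. SLA-DRA stood at 108 and 100.4, FLT3 at 1.36 and 0.84.

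**Figure D4:**
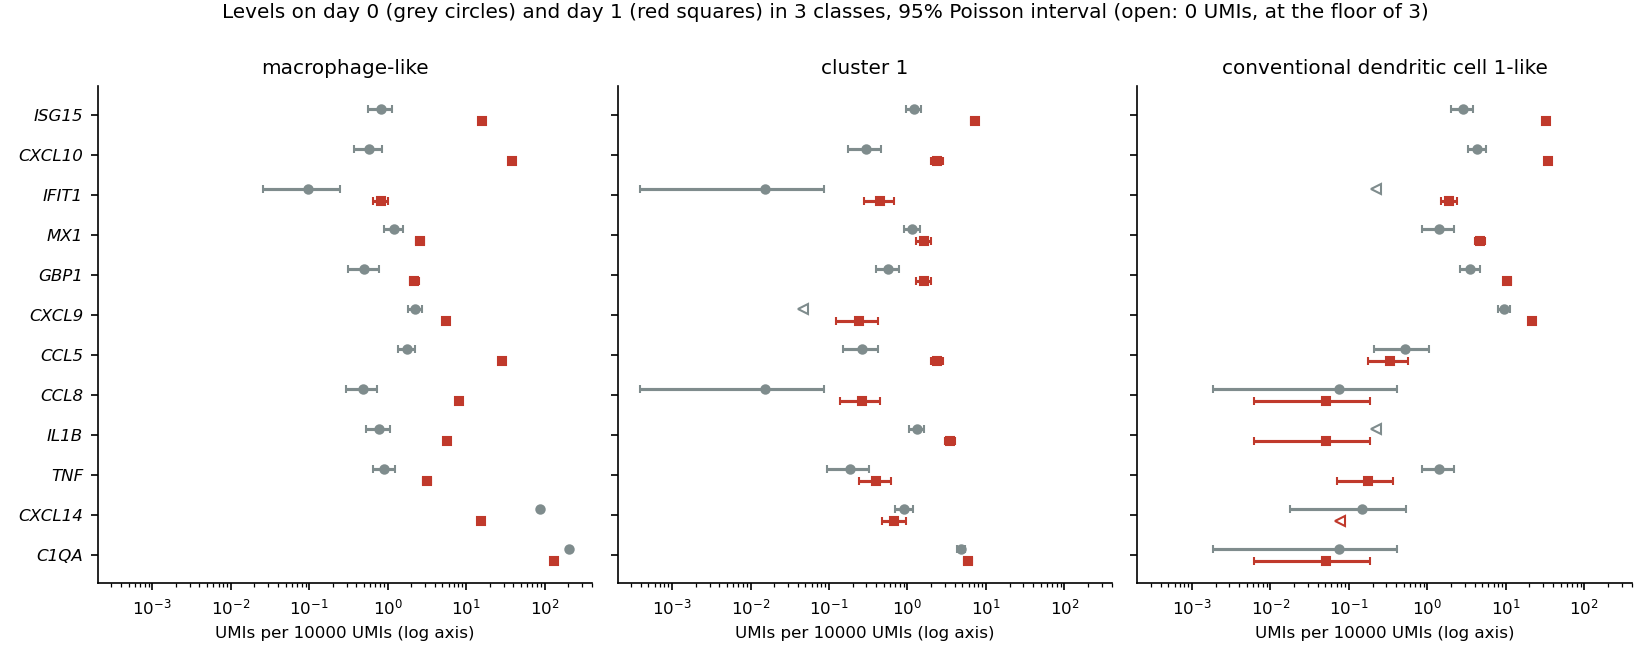
Levels of 12 genes on day 0 (grey) and day 1 (red) within macrophage-like cells, cluster 1 and conventional dendritic cell 1-like cells (logarithmic axis, UMIs per 10000, exact Poisson 95% intervals). ISG15 and CXCL10 were higher on day 1 in each of the 3 classes, and the size of the difference varied between them.

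The monocyte-like cells were compared between days 1 and 14, the days that held most of them. The 224 cells of day 1 were almost all of cluster 0 (213 cells) and the 29 of day 14 almost all of cluster 8 (26 cells), so cluster and day nearly coincide. Of 2319 genes, 763 (32.9%) passed 2-fold, 561 higher on day 14 (24.2%) and 202 lower (8.71%), with 12.4% wholly past it, a split of 73.5% higher that fell to 52.3% with TMM factors. The median gene lay at a log2 ratio of 0.33. HSPA6 stood at 0.0702 on day 1 and 20.9 on day 14, and DNAJB1 at 1.05 and 36. In this class 11 of 13 heat shock genes and 23 of 27 interferon-stimulated genes were higher, with 0 lower in either list. HSPA6, HSP70.2, IFIT2, DNAJB1 and RSAD2 were among the 10 leading genes of cluster 8. The clusters were made from these same data, so both counts in this class are a description. ISG15 stood at 27.3 and 95.6.

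Several monocyte products were lower on day 14 in the whole class, in which cluster and day nearly coincide. IL1B stood at 38 on day 1 and 4.81 on day 14, SAA3 at 196 and 22.9, and RETN at 33.2 and 1.11. SERPINB2, the plasminogen activator inhibitor 2, was 46-fold (8.21 to 1819.9) lower and CXCL8 18.3-fold. Of 9 monocyte markers (LYZ left out) 6 were lower and 1, PLAC8, higher. Of 15 genes of the cytokine list 6 were lower and 2 higher, and of all genes 8.71% were lower and 24.2% higher. CTSD was 15.7-fold (12.8 to 19.3) higher, and 9 of 21 lysosomal genes were higher with 0 lower, beside the same shares of all genes. HMOX1, the haem oxygenase, stood at 2.54 and 9.11, and the Fc receptor gene FCGR1A was 163-fold (25.4 to 6844) higher.

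Only the 11 day 1 cells of cluster 8 allowed a comparison of days within that cluster, and they were low in several monocyte markers. S100A12 and THBS1 stood at 0.170 and 0 in them, against 21.2 and 1.00 in the day 14 cells of cluster 8. C1QC stood at 4.60 and 1.07, so the 11 cells are not a plain day 1 counterpart of the day 14 cells. SLA-DRA was higher on day 14 in the whole class, 6.9 against 2.32, but within cluster 8 it was lower on day 14, 7.31 against 13.3 in these 11 cells, and SLA-DQA1 turned in the same way, 11.6 in the 11 cells and 4.8 in the day 14 cells of cluster 8. SLA-DQB1, within 2-fold in the whole class, stood at 13.8 and 5.01 in these. FCGR3A, an Fc receptor, was close to day 14 in them, 26.1 against 24.2. HSPA6 and DNAJB1 stood at 0 and 3.58 in the 11 cells, CTSD at 2.73 and ISG15 at 3.07, all below the day 14 cells of cluster 8 at 20.6, 34.4, 17.6 and 103. The 6 lower monocyte markers (VCAN, CD14, S100A8, S100A9, S100A12 and THBS1) turned as well and were higher on day 14 within cluster 8, S100A9 at 0.682 in the 11 cells and 40.4 on day 14 and CD14 at 2.9 and 7.24, as were SAA3 and RETN, though the counting intervals of the VCAN and RETN ratios held 1. In all, 130 of the 763 genes turned within cluster 8, 52 of them by 2-fold or more. The counting interval of the ratio was clear of 1 in 32 of the 130. IL1B, SAA3 and RETN lay below cluster 0 in both, at 8.01, 5.46 and 0.341 on day 1 and 4.3, 22.5 and 1.07 on day 14, against 39.1, 203 and 34.5 in cluster 0 on day 1. 

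**Figure D5:**
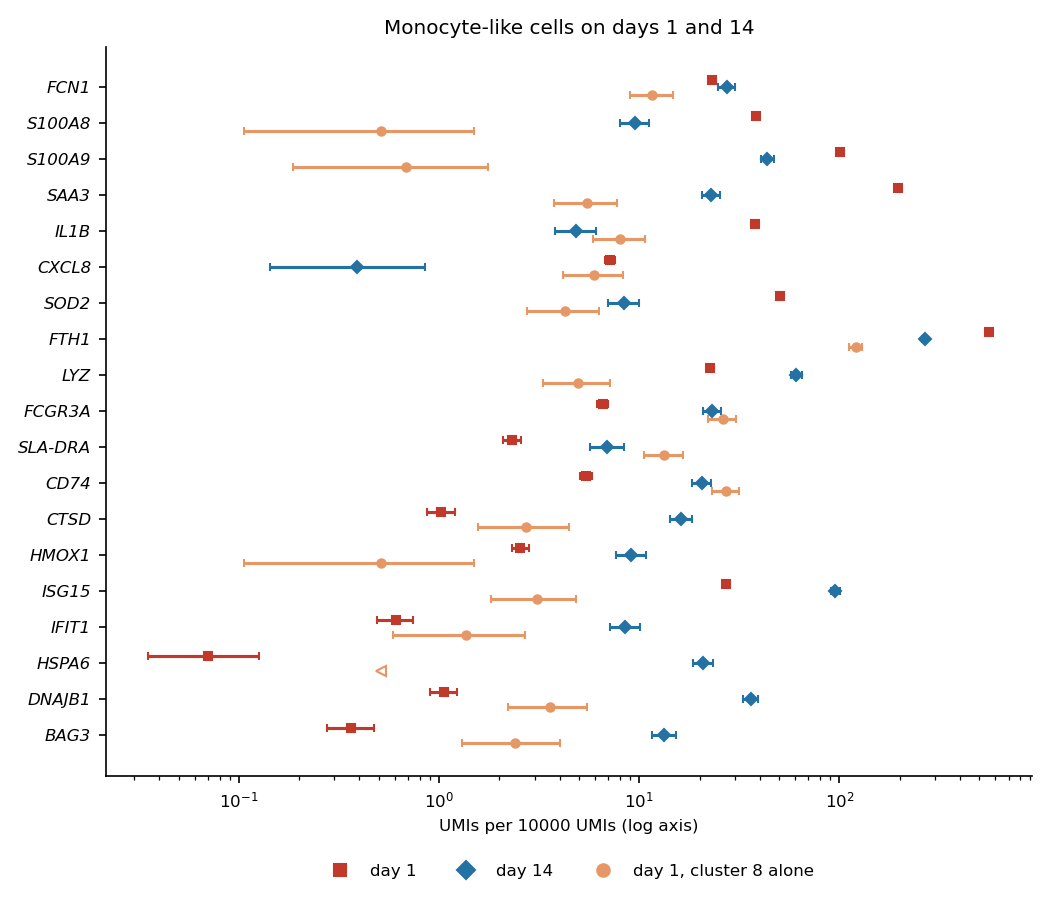
Levels of 19 genes in monocyte-like cells on day 1 (red), on day 14 (blue) and in the 11 day 1 cells of cluster 8 (orange), on a logarithmic axis in UMIs per 10000 with exact Poisson 95% intervals. HSPA6, DNAJB1, CTSD and ISG15 separated day 14 from both sets of day 1 cells, while for SLA-DRA the 11 cells lay above day 14.

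Clusters 6, 7, 9 and 14 were unnamed too. Cluster 9 held 39 cells, 6 on day 0, 18 on day 1 and 15 on day 3. The cell cycle gene TOP2A, KIF11 and UBE2C were among its 5 leading genes. Cluster 14 held 16 cells and was led by CEBPE, RFLNB and CA8. Cluster 7 held 49 cells, all of day 1, with FCN1 at 43.1, S100A8 at 104, S100A9 at 313 and RETN at 136, above the 23.6, 40, 105 and 34.5 of cluster 0 on that day. It was led by LTF (lactoferrin), PADI4, LCN2 and CHIT1, genes also known from granulocytes, so it carried no name. ARG1 stood at 12.4 in it and at 44.6 in cluster 0, and CXCL10 at 0.855 and 13.6. Its median depth was 4286 UMIs, against 6016 in cluster 0. SLA-DRA was low in both, at 0.855 and 1.89. Cluster 6 held 50 cells, 22 on day 0, 19 on day 1 and 9 on day 3, and was led by ENHO (adropin), IRX3 and PIGR (the polymeric immunoglobulin receptor). ENHO stood at 16.5, 8.37 and 4.22 on these days, FLT3 at 1.83, 1.84 and 2.76, and CSF1R at or below 0.203.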

How the data were processed

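The authors deposited, for each of 6 single-cell libraries, an unfiltered matrix of counts, that is UMI counts per gene and barcode, made per the labels with Cell Ranger 3.1.0 and its STAR aligner on the pig build susScr11 (Sscrofa11.1). The labels name the third version of the kit and the study's methods the second, and the series' design text names the cecum where the sample labels and the study name the ileum. No column of another series was present (0 unmapped columns). All 20648 genes had an entry in the RefSeq table of Sscrofa11.1, which gave the coordinates. Sequences are not used here.

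Members were chosen by the counts stated in the report, and the members, gene lists and rules were chosen with earlier results of these data known. Raw counts were summed over the members of a library and scaled to 10000 UMIs. With 1 library per day there was no test. Sums carry exact Poisson intervals, shares exact Clopper-Pearson intervals and ratios exact conditional binomial intervals, all at 95% and for counting error only. Genes with a mean level of at least 0.5 UMIs per 10000 over both days entered a comparison, and log2 ratios used a prior of 0.5 UMIs. A gene at 0 UMIs on 1 day was given against a floor of 3 UMIs. Genes were named when they belonged to the 5 marker genes (LYZ, CST3, AIF1, FCN1, F13A1) or to 1 of 36 lists (533 genes, 495 in the files), when they were among the 10 genes per direction with the counting bound farthest from 1, the 15 genes highest in members, or the 5 leading each cluster. Genes of the top 10 within classes were named by the same rule, which was extended to classes after the clusters were seen.

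Members were clustered (counts per 10000, log1p, 1500 variable genes, 20 principal components, 15 neighbours, Leiden resolution 0.5), without alignment of libraries. A cluster was named when at least 3 markers of a list were found in at least 25% of its cells at 2-fold or more and its leading genes did not go against the list. That rule was written after the clusters were seen. B cell barcodes met the same depth limits with at least 3 MS4A1 and PAX5 UMIs. Doublets were treated only by the limits on T, B and epithelial genes, no caller was run. The median mitochondrial share of members lay between 3.99 and 5.71% by library. In simulated counts with 200 genes changed 4-fold, 151 of 151 changed genes that entered were recovered for day 1 against 0 (0 unchanged genes called), 159 of 159 for day 14 against 0 (7 called) and 161 of 162 for day 14 against 1 (3 called). These were Poisson draws from the summed profile of 1 day, with changed genes at a level of at least 0.5. They held no spread between cells, piglets or libraries, so they check the counting only and give no error rate for differences between ages. Tools were Python 3.11.15, numpy 2.4.6, scipy 1.17.1, pandas 2.3.3, scikit-learn 1.9.0, igraph 0.11.9, leidenalg 0.10.2, matplotlib 3.10.9, R 4.3.3 and edgeR 4.0.16, the last for TMM factors only.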

Additional observations from a re-analysis of the deposited data

Results flagged for a closer look

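Of 1633 genes that entered in macrophage-like cells, cluster 1 and conventional dendritic cell 1-like cells alike, 6 were at least 2-fold higher on day 1 than on day 0 in one class and at least 2-fold lower in another, with the counting interval of each ratio clear of 1. Each class has 1 library per day, so the difference between classes was not tested. The macrophage-like class held 31 cells of cluster 2 and 21 of cluster 11 on day 0 but 81 and 1 on day 1, so its makeup differed between the days too. MT-2B, a metallothionein that binds zinc and copper, stood at 1.54 UMIs per 10000 on day 0 and 4.99 on day 1 in macrophage-like cells but at 5.33 and 1.90 in cluster 1, a difference of the log2 ratios of 3.17. C1H15orf48 stood at 0.576 and 1.95 in macrophage-like cells and at 3.39 and 1.45 in conventional dendritic cell 1-like cells (difference 2.97). TNF stood at 0.912 and 3.21 in macrophage-like cells and at 1.40 and 0.178 in conventional dendritic cell 1-like cells (difference 4.72), the last value resting on 7 UMIs.

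SOX4, a transcription factor, stood at 0.540 and 1.22 in cluster 1 and at 0.720 and 0.309 in macrophage-like cells (difference 2.39). ARID4A stood at 0.369 and 0.990 in conventional dendritic cell 1-like cells and at 1.08 and 0.514 in macrophage-like cells (difference 2.38). The counting interval of its fold in the conventional dendritic cell 1-like cells was wide, 1.06 to 8.73. IL6ST, the shared signalling chain of the interleukin 6 receptors, stood at 0.886 and 1.96 in conventional dendritic cell 1-like cells and at 0.817 and 0.260 in cluster 1 (difference 2.70).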

How the results depend on the processing

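Of 329 recomputed shares and counts, 289 stayed within the counting interval or within 1.5 times the value given, and 40 moved. Of 3473 recomputed values of 240 genes in the 3 comparisons over all members, 3044 stayed within the counting interval, 428 moved beyond it with no called value turning, and 1 turned: FABP6, day 14 against 1, had 0 UMIs on day 14 and a log2 ratio of -3.56 against the floor (-6.14 with the prior), and of 2.06 with at least 5 UMIs of the rule genes. Within classes, 13 of 268 genes turned with cluster 2 alone, APOE, CLU, CXCL14 and CTSD among them, and 130 of 763 with cluster 8 alone, SLA-DRA, SLA-DQA1, SAA3, RETN and the 6 lower monocyte markers among them. The counting interval was clear of 1 in 5 of the 13 and in 32 of the 130. The share on day 0 was 2.36% with a limit on collagen and endothelial genes and 4.65% at 5000 UMIs or more. On day 1 it was 6.57% and 12.1%, 6.62% with at least 20 rule UMIs, 9.15% with at least 5 and 7.26% without the 10% deepest members, and on day 3 1.43% and 2.79%, 1.38% and 2.23%. Genes past 2-fold (day 1 against 0, 14 against 0, 14 against 1) numbered 79, 183 and 124 at a mean level of at least 2, 4903, 6662 and 7647 with no filter, where 58.3, 28.1 and 25.9% were higher, and 112, 277 and 181 passed 3-fold. With no filter, genes at 0 UMIs in the shallower day 14 sum counted as lower. At 3-fold the classes had 87 (macrophage-like), 339 (monocyte-like), 36 (cluster 1) and 77 genes (conventional dendritic cell 1-like). Higher interferon-stimulated genes numbered 2, 14 and 15 at a level of at least 2, and 25 for day 1 with no filter. For day 1 against 0, higher genes of the cytokine list numbered 5 and 19 and higher chemokines 5 and 14 under these filters. Lower macrophage genes numbered 2 with the collagen limit on day 1 and 10 with no filter on day 14 against 0, where lower genes of the MHC class II list numbered 2 at 5000 UMIs. Higher lysosomal genes on day 14 against 1 numbered 1 at a level of at least 2 and 7 with 10% free RNA subtracted. The share of higher calls was 51.3% with cluster 8 alone for the monocyte-like class and, in cluster 1, 70.5% against 55.4% with TMM factors. Not thinned, FLT3 was found in 36.0, 18.1 and 49.6% of cells on days 0, 1 and 3. Leaving out the fibroblast-, endothelial- and T and NK cell-like clusters, scaling by TMM in classes, equal weight per cell in classes, cluster 2 or 8 alone, lists without the rule genes, cluster 7 counted as monocyte-like and 3-fold in classes were chosen after seeing the data. No paired analysis was possible because each day has 1 library, all numbered 1. Days 7 and 21, with 12 and 3 cells, and genes near the floor of 3 UMIs on day 14 are limited by depth.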
